A study of Mus musculus with 6 samples.

Results

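The cells described here are dividing CD8 T cells from mouse tumours that still held messenger RNA of Tcf7. They were chosen by a rule: a cell had to belong to cluster 3 or 5 of the authors' deposited clustering and to carry at least 1 unique molecular identifier (UMI, a tag that counts an RNA molecule once) of Tcf7. The rule found 779 cells among the 4776 cells of those clusters (16.3%), out of 26698 cells in all. Cluster 3 gave 440 of them (17.9% of its cells) and cluster 5 gave 339 (14.6%). Because Tcf7 chose the cells, its own level was not used as a result.

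Tcf7 encodes TCF-1, a DNA-binding partner of β-catenin that is high in naive and central memory T cells. In tumours and chronic infection it marks the stem-like, or progenitor, part of the exhausted CD8 T cell pool, which renews itself and gives rise to more differentiated cells. Those differentiated cells lose Tcf7 and gain cytotoxic molecules and inhibitory receptors, and many of them pass through a dividing stage on the way.

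The 6 libraries came from wild-type C57BL/6 mice, 3 libraries from males and 3 from females, aged 6 weeks at inoculation according to the protocol and 6 to 8 weeks in the age label. Every animal carried a subcutaneous tumour of MB49, a mouse urothelial carcinoma cell line. Live CD3+ CD8+ CD4- cells were sorted from the tumours on day 10 and sequenced with a droplet kit that reads the 3′ end of transcripts. The deposited table numbers its libraries 1 to 6 and gives the sex of each (male 1, 3 and 4, female 2, 5 and 6), but which labelled replicate a number stands for cannot be told, so libraries are named by sex and number.

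The label held for T cell and cell cycle markers. Of the 761 cells that could be matched with a control, 96.5% had a UMI of Cd3e, 96.1% of Cd8a and 91.6% of Cd8b1, while Cd4 was seen in 0.394%. In the matched controls the shares were 98.0%, 99.1%, 99.2% and 0.394%, so Cd8b1 was found less often with Tcf7. Mki67, which encodes the proliferation antigen Ki-67, was found in 87.1% of the matched Tcf7-positive cells and 88.0% of the matched controls. It was found in 3.87% of cluster 2 and 5.02% of cluster 7. These are the resting clusters where Tcf7 was most often found (median depths of 5936 and 7465 UMIs per cell). The inhibitory receptor gene Pdcd1 (PD-1) was found in 80.0% of the matched Tcf7-positive cells and in 93.3% of the matched controls. In the shallower clusters 2 and 7 it was found in 15.0% and 13.4% of cells. Pax5 of B cells, Krt14 and Krt19 of epithelium, Adgre1 of macrophages and Cdh5 of endothelium were at 0 in the summed counts of the Tcf7-positive cells. The 8 tumour epithelial markers of the list measured 2.79 to 8.49 CPM in sum, against 1.44 to 10.2 CPM in the controls, and the 7 fibroblast and endothelial markers 11.9 to 23.6 CPM against 3.35 to 10.0 CPM. The 3 B cell markers summed to 3.06 to 7.03 CPM against 0.377 to 3.79 CPM, and Pax5 was at 0 in both groups. The 15 myeloid markers summed to 151 to 265 CPM against 208 to 274 CPM.

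Markers of natural killer and innate-like lymphocytes were not absent. The 17 markers of that list summed to 514 to 646 CPM (UMI counts scaled by library size) per library in the Tcf7-positive cells and to 227 to 375 CPM in the controls, and none was at 0. A cell was called innate-marked when it lacked a Cd8b1 UMI or carried any UMI of Klrb1c, Klra1, Klra7, Klra9, Fcer1g or Tyrobp. By that rule, chosen after the data were seen, 45.8% of the Tcf7-positive cells were innate-marked, against 24.0% of the Tcf7-zero cycling cells and 94.4% of cluster 2. Results are therefore also given for the 412 pairs left after all innate-marked cells were removed, with sums as small as 28 cells in female libraries 2 and 6.

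Finding 1 UMI also depends on how deeply a cell was read. The share of cycling cells with Tcf7 was 12.3% among the 1194 shallowest cells and 23.8% among the 1194 deepest, and the median depth was 25348 UMIs with Tcf7 and 20511 without. Each Tcf7-positive cell was therefore paired with a Tcf7-zero cell of its own library and cluster whose total differed by at most 10%. The 761 pairs had median depths of 24938 and 24604 UMIs, and 18 cells found no partner. The Tcf7-positive cells of a library summed to 1564738 to 6828569 UMIs, from 56 to 249 cells. Very deep cells, above the 95th percentile of their library and cluster, made up 10.0% of the Tcf7-positive cells and 4.15% of the others. Of the barcodes in the table, 84 occurred under more than 1 library number, and 4 Tcf7-positive cells carried one.

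Of the 779 cells, 298 held 1 Tcf7 UMI, 127 held 2 and 354 held 3 or more, up to 19. When every cell was thinned to 9500 UMIs, the share expected to keep a Tcf7 UMI was 11.5% ± 7.16 in cluster 3 and 9.71% ± 5.77 in cluster 5 (mean ± SD, n = 6 libraries). The same share was 86.9% ± 5.06 in cluster 7 and 4.15% ± 2.78 in cluster 8, which had the lowest share of any cluster. Both cycling clusters lay above cluster 8 in 6 of 6 libraries, with median depths of 23987.5, 18351 and 13987 UMIs in clusters 3, 5 and 8. Cluster 0, at 13.8% ± 8.33, also lay above cluster 8 in 6 of 6 libraries. Cluster 8 is the lowest by these same Tcf7 counts, so other clusters lying above it is no test of stray RNA. The level of stray RNA was not measured. Part of the cells with 1 UMI may still hold stray RNA, so a second definition with at least 2 UMIs was also run.

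Male libraries held a larger measured share of Tcf7-positive cells than female ones, but the number of animals does not allow a call. After thinning, the share was 22.1%, 10.2% and 12.9% in male libraries 1, 3 and 4, and 5.32%, 4.10% and 9.28% in female libraries 2, 5 and 6. The sexes did not overlap, and the means were 15.1% ± 6.25 and 6.23% ± 2.71 (SD, n = 3 each). The difference of 8.85 percentage points gave a two-sided exact permutation p of 0.1, the smallest that 3 libraries against 3 can give. Without thinning the means were 21.9% ± 8.19 and 9.74% ± 2.94. Without innate-marked cells the difference was 5.88 points with an exact p of 0.2, and without male library 1 it was 5.32 points. With at least 2 Tcf7 UMIs it was 4.23 points (exact p = 0.2), and female library 6 (4.85%) lay above male library 4 (4.79%). With possible doublets removed by a filter that took out 97.7% of the Tcf7-positive cells it was 2.65 points (exact p = 0.3), and female library 6 (7.12%) lay above male libraries 3 and 4 (3.27% and 4.59%).

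**Figure D1:**
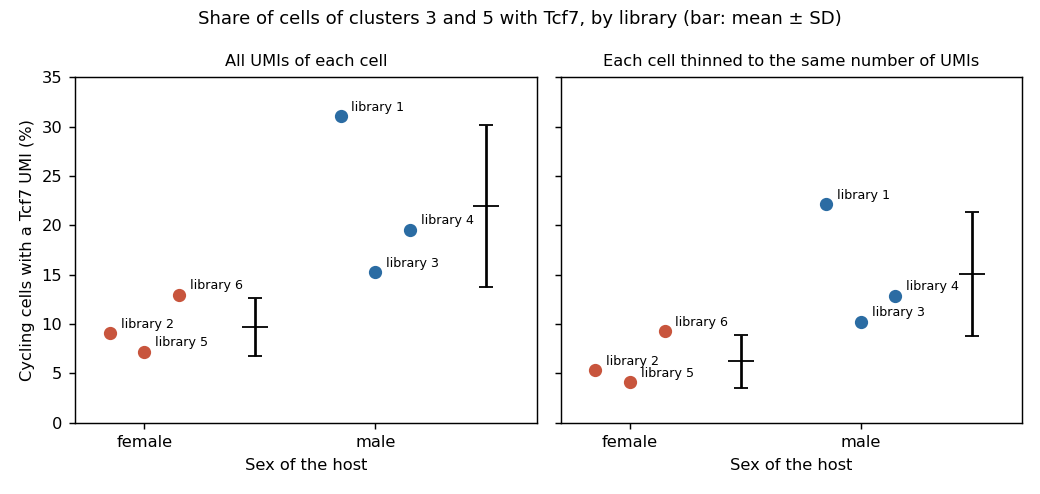
Percentage of cells of clusters 3 and 5 with a Tcf7 UMI in each library (points), counted on all UMIs (left) and expected after thinning to 9500 UMIs (right), with the mean ± SD per sex (n = 3). The 3 male libraries lie above the 3 female libraries in both panels, and male library 1 is the highest at 22.1% after thinning.

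The first comparison asked how dividing cells with Tcf7 differed from dividing cells without it. In the Tcf7-positive cells 13 of 14 tested genes of naive and central memory T cells and 9 of 13 stem-like genes were higher, while 12 of 19 exhaustion genes and 9 of 23 effector genes were lower. Klf3, S1pr1, Id3 and Tnfsf8 were 5.83 to 8.02 times higher, while Gzmb and Prf1, genes of a granzyme and of perforin, were 1.81 and 1.69 times lower. Of 8941 genes tested with edgeR's quasi-likelihood test, 1890 passed an adjusted p of 0.05 (21.1%), 948 of them higher (10.6%) and 942 lower (10.5%). At an unadjusted p under 0.05 the number was 2947. The median log2 fold change over all genes was -0.00, so the values below are relative to a centre at no change. Without innate-marked cells, 436 genes were higher (5.7% of 7655 tested) and 323 lower (4.22%), 759 in all (9.92%), and 387 of the higher and 297 of the lower genes had also passed in the full set. The number of genes passing was 928 with DESeq2 and 792 when the library was not kept as a block.

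The naive and central memory list was the most uniform. Of its 16 genes, 14 were tested, 13 were higher and none was lower, with a median log2 fold change of 1.02. Without innate-marked cells the same counts were 14, 13 and 0, with a median of 0.99.

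S1pr1 encodes the sphingosine-1-phosphate receptor that draws T cells out of tissue into lymph and blood (chromosome 3, 115710433 to 115715072, mm10). It measured 19.97 to 52.8 CPM with a median of 41.0 in the Tcf7-positive cells, and 1.65 to 8.70 CPM with a median of 4.28 in the controls. Every Tcf7-positive value was above every control value; the groups failed to overlap for 4.57% of all genes tested. The log2 fold change was 2.74 ± 0.154 (SE, adjusted p = 2.3e-12). Klf3, a Krüppel-like transcription factor gene (chromosome 5, 64803388 to 64832901), measured 24.4, 37.6 and 50.4 CPM at its lowest, median and highest, against 2.07, 5.03 and 8.70 CPM. Those values did not overlap either, with a log2 fold change of 2.54 ± 0.139 (adjusted p = 4.03e-14). Its relative Klf2, an activator of S1pr1 in T cells, was higher by 1.04 ± 0.113 on the log2 scale (adjusted p = 0.000436). Nsg2 (2.66) and Dapl1 (2.42), both high in naive T cells, had log2 fold changes of similar size.

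Ccr7, the chemokine receptor gene for lymph node homing, had the least secure call of the group. It measured 74.3 to 132 CPM with a median of 91.4, against 5.79 to 66.3 CPM with a median of 18.5. The groups did not overlap, yet the controls spread widely and the log2 fold change of 1.63 ± 0.379 passed narrowly (adjusted p = 0.0365). Leaving out any library except male library 1 ended the call, with adjusted p between 0.062 and 0.10, and so did removing innate-marked cells (1.84, adjusted p = 0.0508). Il7r, the gene of the interleukin-7 receptor that sustains memory cells, was the member of the list that did not pass. Its medians were 200 CPM (156 to 228) and 195 CPM (139 to 213), with a log2 fold change of 0.11 at an adjusted p of 0.158, and without innate-marked cells it was 0.28 with an adjusted p of 0.00183.

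Stem-like and progenitor exhausted genes followed the same direction. Of 16 genes, 13 were tested, 9 were higher and none was lower, with a median log2 fold change of 1.08. Slamf6, a surface receptor used to sort progenitor exhausted cells (chromosome 1, 171917515 to 171953170), measured 54.5 to 63.8 CPM with a median of 57.3, against 12.6 to 27.6 CPM with a median of 19.1. Its levels varied little among the Tcf7-positive libraries and did not overlap the controls, with a log2 fold change of 1.39 ± 0.113 (adjusted p = 3.98e-08). Tnfsf8, the gene of CD30 ligand, measured 12.4, 27.0 and 51.2 CPM at its lowest, median and highest against 1.93, 2.82 and 6.34 CPM, with a log2 fold change of 2.85 ± 0.185 (adjusted p = 7.43e-10). Cd83 (1.37), Ikzf2 (1.08) and Gpr183 (0.68) were higher as well.

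**Figure D2:**
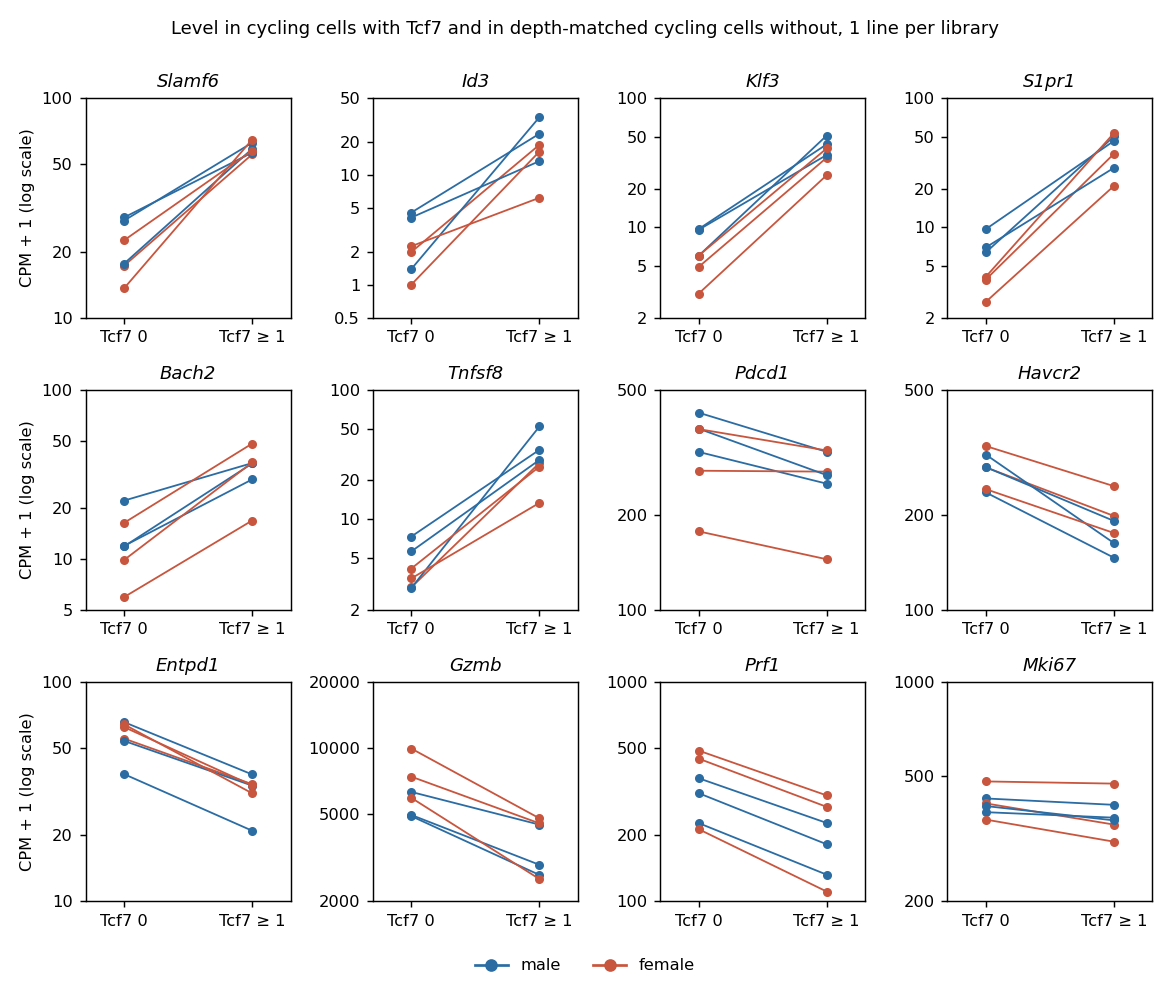
Level of 12 genes in CPM plus 1 on a log scale, in depth-matched cycling cells without Tcf7 (left) and with Tcf7 (right); each line is 1 library, blue for male and red for female. Slamf6, Id3, Klf3, S1pr1, Bach2 and Tnfsf8 are higher and Havcr2, Entpd1, Gzmb and Prf1 lower in the Tcf7-positive cells of 6 of 6 libraries, and Mki67 differs little.

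Xcl1, the chemokine gene for the receptor of cross-presenting dendritic cells, was higher in 6 of 6 libraries, by 1.10 ± 0.224 on the log2 scale (adjusted p = 0.0232). It passed in 11 of 22 alternative analyses. Leaving out male library 1, female library 2, male library 4 or female library 6 gave adjusted p of 0.053, 0.068, 0.084 and 0.060, and its level without innate-marked cells did not pass (1.33, adjusted p = 0.0764). Without innate-marked cells 6 of 12 tested genes of the stem-like list were higher, with a median of 0.53, and Slamf6 (1.33) and Tnfsf8 (2.63) kept their values.

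Among transcription factors, Id3, an inhibitor of E proteins that accompanies TCF-1 in memory precursors, measured 5.19 to 32.6 CPM with a median of 16.6 in the Tcf7-positive cells. The controls measured 0 to 3.54 CPM with a median of 1.11, which is close to the floor of detection, and the groups did not overlap. The log2 fold change was 3.00 ± 0.369 (adjusted p = 0.000459), and 23.9% against 3.29% of cells had a UMI. Bach2, a repressor of effector differentiation, measured 15.8, 35.8 and 47.1 CPM against 4.92, 10.9 and 21.1 CPM, with a log2 fold change of 1.33 ± 0.126 (adjusted p = 6.62e-09). The lowest Tcf7-positive value lay below the highest control value, but Bach2 was higher in the Tcf7-positive cells of 6 of 6 libraries.

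Lef1, the closest relative of Tcf7, measured 38.7 to 69.3 CPM with a median of 48.6 against 24.2 to 40.3 CPM with a median of 28.6. The ranges touched, and the log2 fold change was 0.76 ± 0.104 (adjusted p = 1.15e-05). Of 15 genes of TCF/LEF partners and Wnt targets, 10 were tested, 7 were higher and none was lower, with a median of 0.49. They include the co-repressor Tle4 (0.65) and Axin2 (1.03), a feedback inhibitor induced by Wnt signals. Without innate-marked cells 3 of 8 tested were higher and none was lower, with a median of 0.34.

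Foxo1, which drives Il7r and Klf2 in resting T cells, and Foxp1, which holds T cells in quiescence, were higher by 0.61 and 0.62 on the log2 scale. Tox, the factor that installs the exhausted state, was also higher, by 0.44 ± 0.0918 (adjusted p = 0.000471), at 28.7 to 48.4 CPM against 18.3 to 33.9 CPM. Myb, needed for stem-like exhausted cells, did not pass: its medians were 30.7 and 31.5 CPM, with a log2 fold change of 0.05 (adjusted p = 0.738). Bcl6 and Cxcr5, which mark follicular-type CD8 T cells, fell below the filter on low counts. A Bcl6 UMI was found in 10.9% against 3.94% of cells and a Cxcr5 UMI in 3.94% against 0.526%.

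The exhaustion list moved the other way in most of its members. Of 22 genes, 19 were tested, 12 were lower and 2 were higher, with a median log2 fold change of -0.37. The 2 higher genes were Tox and Cd160, an inhibitory receptor gene with a log2 fold change of 0.24. Without innate-marked cells 8 of 17 were lower and 1 was higher, with a median of -0.31.

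Havcr2, the gene of TIM-3, a receptor of terminally exhausted cells, measured 145 to 246 CPM with a median of 182 in the Tcf7-positive cells and 235 to 331 CPM with a median of 283 in the controls. It was lower in 6 of 6 libraries although the ranges overlapped slightly, with a log2 fold change of -0.61 ± 0.0535 (adjusted p = 3.06e-10). Entpd1, the gene of the ectonucleotidase CD39 (chromosome 19, 40612366 to 40741602), measured 19.98 to 36.9 CPM with a median of 32.7 against 37.0 to 64.6 CPM with a median of 57.7. Its groups just failed to overlap, and its log2 fold change was -0.82 ± 0.0785 (adjusted p = 5.32e-10).

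Pdcd1 and Lag3, 2 inhibitory receptor genes, fell by less. Pdcd1 measured 144 to 320 CPM with a median of 270 against 176 to 423 CPM with a median of 346, a log2 fold change of -0.31 ± 0.0506 (adjusted p = 2.23e-05). The groups overlapped broadly, and the call rests on the lower level in 6 of 6 libraries. Lag3 had a log2 fold change of -0.37 ± 0.0717 at an adjusted p of 0.00235. It did not pass with no replicate block (adjusted p = 0.297), in cluster 3 alone (0.194) or against a second matched set of controls (0.0956). Prdm1, the gene of BLIMP-1, a factor of terminal differentiation, and Id2, the effector counterpart of Id3, were lower, with log2 fold changes of -0.39 and -0.40, and Id2 did not pass without innate-marked cells (-0.34, adjusted p = 0.104).

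A part of the effector and cytotoxicity list was lower. Of its 23 genes, all tested, 9 were lower and 1, the cathepsin gene Ctsw (0.27), was higher, with a median of -0.35. Without innate-marked cells 6 of 22 were lower and none was higher. Gzmb, the main cytotoxic granzyme gene (chromosome 14, 56258838 to 56262260), measured 2527 to 4778 CPM with a median of 3703, against 4890 to 9934 CPM with a median of 6114. The groups did not overlap, with a log2 fold change of -0.85 ± 0.101 at an adjusted p of 0.00218. Gzmb narrowly lost its call in cluster 3 alone (-0.84, adjusted p = 0.0524) and with no replicate block (-0.85, adjusted p = 0.0523). A Gzmb UMI was still found in 94.9% of the Tcf7-positive cells against 98.7%. Prf1, the pore-forming perforin gene, measured 110, 204 and 303 CPM at its lowest, median and highest against 212, 337 and 485 CPM, with a log2 fold change of -0.76 ± 0.0462 (adjusted p = 1.4e-14).

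Gzmc (-1.35), Gzmd (-1.31) and Gzme (-1.55), granzyme genes of strongly activated cells, had larger falls than Gzmb, and their calls also depended on the setting. Gzmc measured 82.8 to 352 CPM with a median of 225 against 475 to 687 CPM with a median of 602 (adjusted p = 0.00749). Without innate-marked cells none of the 3 passed, with log2 fold changes of -1.004, -1.81 and -1.58 and adjusted p of 0.0983, 0.233 and 0.254. Gzmd also lost its call without male library 1 (adjusted p = 0.055), female library 2 (0.062), male library 4 (0.080) or female library 5 (0.076), and Gzme without female library 2 (0.052) or male library 4 (0.060). Gzma and Ifng, the gene of interferon-γ, did not pass: their log2 fold changes were -0.61 (adjusted p = 0.307) and -0.55 (adjusted p = 0.131), and their ranges overlapped.

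Metallothionein genes, which buffer zinc and are high in dysfunctional tumour T cells, were among the strongest falls. Mt1 measured 65.7, 84.1 and 120 CPM against 118, 288 and 398 CPM, with a log2 fold change of -1.43 ± 0.264 (adjusted p = 0.0168). Mt2 (-1.46) and Mt3 (-1.17) were lower too, all in 6 of 6 libraries. The Mt1 call was lost without female library 2 (adjusted p = 0.055) or male library 3 (0.056), and the Mt2 call without female library 2 (0.069), male library 3 (0.074), male library 4 (0.054) or female library 5 (0.062). Epas1, the gene of the hypoxia-inducible factor HIF-2α, fell by 1.06 on the log2 scale, and Il1r2, a decoy receptor of interleukin-1, by 0.94 (adjusted p = 0.00609).

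Receptors of the innate-like list stood among the largest rises. Of its 17 genes 11 were tested, 8 were higher and 1 was lower, with a median log2 fold change of 1.29. Klra7, a Ly49 receptor gene of natural killer and memory-like CD8 cells, measured 4.39 to 107 CPM with a median of 39.4, against 0 to 9.61 CPM with a median of 1.20. Its groups overlapped, and the log2 fold change was 3.02 ± 0.543 (adjusted p = 0.0153). The Klra7 call was lost without male library 1 (3.36, adjusted p = 0.055) and against a second matched set of controls (3.03, adjusted p = 0.0548). Klra6, a further Ly49 gene outside the list, had the largest rise of the genes named by size, 4.23 ± 0.290 (adjusted p = 8.88e-07). A Klra7 UMI was present in 21.9% of the Tcf7-positive cells, 5.12% of the controls, 60.1% of cluster 2 and 17.1% of cluster 7. The part of innate-like cells in these rises was not tested.

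Cd7, a surface protein gene of T and natural killer cells, kept its rise without the innate-marked cells. It measured 60.3 to 119 CPM with a median of 102 against 6.63 to 14.6 CPM with a median of 13.4, with no overlap and a log2 fold change of 2.93 ± 0.236 (adjusted p = 0.000388). Without innate-marked cells the log2 fold change was 2.499 (adjusted p = 0.0263). Il2, the gene of the growth factor interleukin-2, passed with 2.26 ± 0.496 (adjusted p = 0.0264) but was unstable: against a second matched set of controls its log2 fold change was -1.16 (adjusted p = 0.505), and without female library 5 or 6 its adjusted p was 0.068 and 0.066.

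The cell cycle programme was close between the groups and slightly lower with Tcf7. Of 41 DNA replication and S phase genes 14 were lower and none higher, with a median log2 fold change of -0.13. Of 50 mitosis and G2/M genes 15 were lower and none higher, with a median of -0.19. These genes sum to 3687 ± 337 CPM against 4096 ± 255 CPM for S phase and to 7215 ± 809 CPM against 8055 ± 551 CPM for G2/M (mean ± SD, n = 6). By the larger of the 2 relative sums, 53.7% of the Tcf7-positive cells and 56.1% of the controls were classed as S phase.

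Mki67 measured 309 to 473 CPM with a median of 365 in the Tcf7-positive cells and 363 to 481 CPM with a median of 405 in the controls. The groups overlapped, the log2 fold change was -0.12 ± 0.0440 (adjusted p = 0.0424), and the call held in 7 of 22 alternatives. Leaving out a single library other than female library 6 ended it, with adjusted p between 0.073 and 0.14, and thinning cells to 1 depth gave a log2 fold change of 0.02 (adjusted p = 0.846). Top2a, the topoisomerase gene that untangles DNA before mitosis, had a log2 fold change of -0.17 ± 0.0444 (adjusted p = 0.0047). It did not pass with cells thinned to 1 depth (-0.13, adjusted p = 0.132) or without very deep cells (-0.09, adjusted p = 0.148). The call was also lost with at least 2 Tcf7 UMIs (adjusted p = 0.0756) and in cluster 5 alone (0.171). Unmatched controls (0.0850) and no replicate block (0.308) ended it too.

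Of 14 tested genes of G1 cyclins, kinases and inhibitors 2 were higher and 3 lower, and the list summed to 1084 ± 28.0 CPM against 1147 ± 23.3 CPM. Cdk6, a kinase that drives cells out of G1, measured 139 to 170 CPM with a median of 146 against 182 to 263 CPM with a median of 231, without overlap, and its log2 fold change was -0.55 ± 0.0584 (adjusted p = 4.52e-08). Its cyclin partner gene Ccnd2 was higher by 0.33 ± 0.0532 (adjusted p = 1.97e-05), while Ccnd3 did not pass (-0.11, adjusted p = 0.171). Cdkn1b, the gene of the inhibitor p27, was higher by 0.38, and did not pass without innate-marked cells (0.20, adjusted p = 0.227). Il2ra, the high-affinity chain of the interleukin-2 receptor, fell by 0.71 ± 0.102 on the log2 scale (adjusted p = 0.00147). Bcl2, the survival gene, had medians of 181 and 111 CPM and a log2 fold change of 0.95 that did not pass (adjusted p = 0.0523). Without female library 5 it was 1.13 with an adjusted p of 0.028. Bcl2 also passed with DESeq2 (adjusted p = 0.00905), limma-voom (0.0461), no replicate block (0.0379) and at least 2 Tcf7 UMIs (0.0254). The same held for cluster 3 alone (0.0425), cells thinned to 1 depth (0.0265) and without very deep cells (0.0455). In the remaining alternatives it did not pass.

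**Figure D3:**
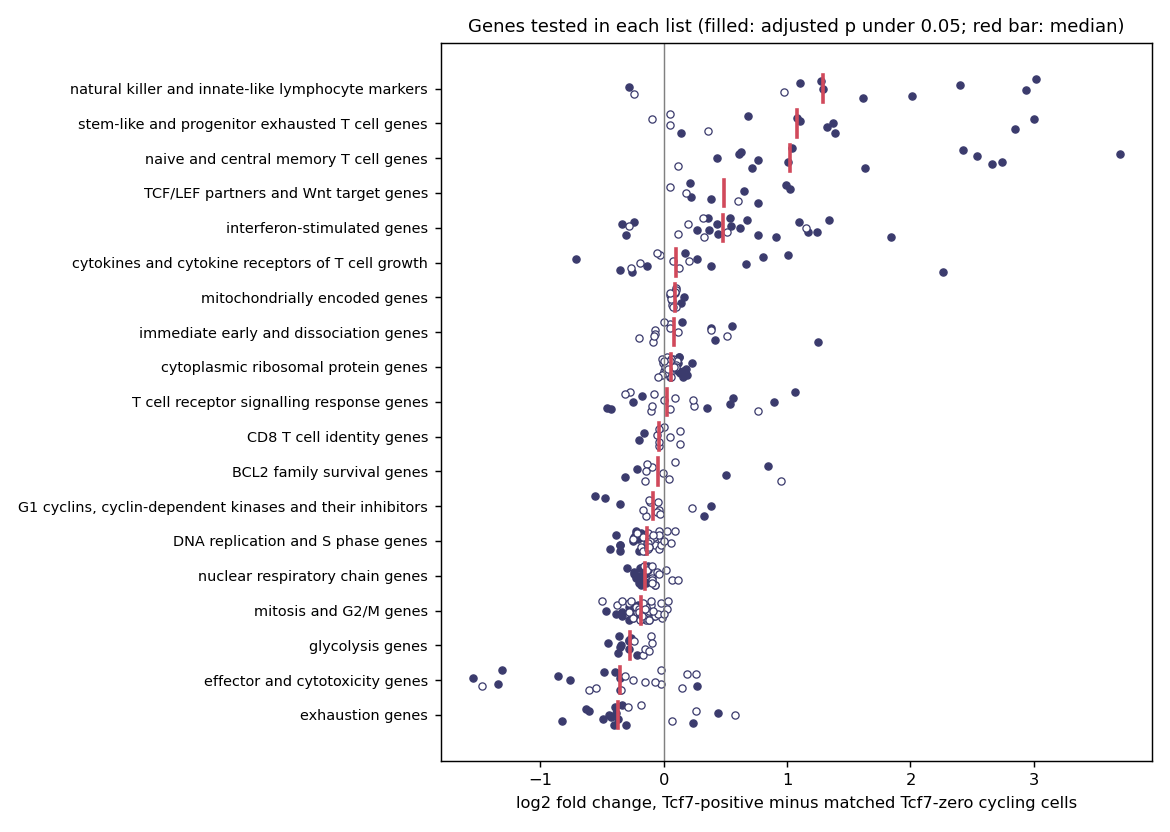
Log2 fold change of every tested gene in each list with at least 10 tested genes (x axis; points filled where adjusted p is under 0.05), with the list's median as a red bar. Naive, stem-like and innate-like lists lie to the right with medians of 1.02, 1.08 and 1.29, exhaustion and effector lists to the left at -0.37 and -0.35, and cell cycle lists close to 0.

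Metabolic genes were lower by small amounts. All 16 glycolysis genes had negative log2 fold changes and 10 were lower by the test, with a median of -0.27, and the same 10 of 16 count held without innate-marked cells. Ldha, the gene of lactate dehydrogenase, measured 1027 to 1415 CPM against 1445 to 1740 CPM, with a log2 fold change of -0.36 ± 0.0406 (adjusted p = 1.79e-08). Of 32 nuclear genes of the respiratory chain 19 were lower and none higher (median -0.15), and 4 without innate-marked cells. Cytoplasmic ribosomal protein genes were nearly level, with 11 of 35 higher and a median of 0.06.

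Interferon-stimulated genes were mostly higher: 16 of 26 tested were higher and 3 lower, with a median of 0.48. Irf7, the amplifier of the type I response, measured 17.8 to 28.8 CPM against 4.43 to 14.3 CPM, without overlap, and its log2 fold change was 1.10 ± 0.137 (adjusted p = 2.27e-07). Rtp4 (1.84) and Oas3 (1.34) had larger ratios, and Ly6a (-0.34), Gbp3 (-0.31) and Gbp7 (-0.24) were the 3 lower genes. Without innate-marked cells 7 of 20 were higher and 3 lower, with a median of 0.32, and Irf7 (0.84, adjusted p = 0.00127) and Rtp4 (1.21, adjusted p = 0.00228) still passed.

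T cell receptor response genes were split, with 5 of 20 tested higher and 4 lower. Egr2 (1.07), Crtam (0.89), Nr4a3 (0.56), Cd69 (0.54) and Nfkbid (0.35) were higher, while Irf8 (-0.46) and the costimulatory receptor genes Tnfrsf4 (-0.43), Tnfrsf9 (-0.25) and Tnfrsf18 (-0.18) were lower. Fos, an immediate early gene that tissue digestion can also induce, was higher by 1.25 ± 0.103 (adjusted p = 5.13e-11), and 5 of the 16 genes of the dissociation list were higher and none lower. The part of cell handling in these differences was not tested.

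The other lists are given beside the 21.1% of all genes that passed. Of 18 cytokine and receptor genes tested 7 were higher and 4 lower, among them the interleukin-4 receptor gene Il4ra (0.67) and the feedback inhibitor Socs3 (1.01). Of 12 survival genes of the BCL2 family 2 were higher and 2 lower. Of 13 mitochondrially encoded genes 2 were higher and none lower. Of 10 CD8 identity genes 2 were lower, Cd3g (-0.20) and Cd3e (-0.16), while Cd8a (-0.06) and Cd8b1 (-0.04) did not pass. Of the markers of other cells, 2 of 3 tested CD4 and regulatory T cell genes and 1 of 2 myeloid genes were lower, and 2 of 3 MHC class II genes were higher. Pecam1, listed here as an endothelial marker, was higher (1.02), and which cells carried it was not tested.

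Levels were also set out by the number of Tcf7 UMIs, as a description without a test, since Tcf7 chose the cells and the classes were not matched on depth. Just outside the threshold, the matched cells without a Tcf7 UMI had 20.1 ± 6.28 CPM of Slamf6. Just inside it, cells with 1 UMI had 48.3 ± 9.04 CPM, and cells with 3 or more had 66.5 ± 8.11 CPM (mean ± SD, n = 6 libraries). Most of the step in Slamf6 therefore lay between 0 and 1 UMI. Klf3 measured 5.56 ± 2.71, 24.9 ± 5.41 and 48.9 ± 12.04 CPM in the same classes, so its level went on climbing within the Tcf7-positive cells.

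The falling genes showed smaller steps. Havcr2 measured 278 ± 31.3 CPM without Tcf7, 223 ± 28.2 CPM with 1 UMI and 159 ± 50.8 CPM with 3 or more. Gzmb measured 6496 ± 1758, 4373 ± 841 and 3109 ± 1158 CPM. Mki67 showed no such order, with 408 ± 47.6, 341 ± 93.5 and 423 ± 62.3 CPM.

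Beside the resting cells with Tcf7, the cycling cells with 3 or more UMIs stayed apart for most of these genes. Tcf7-positive cells of cluster 7 had 156 ± 34.3 CPM of Klf3, against 48.9 CPM in the cycling cells. They had 513 ± 167 CPM of Gzmb and 9.87 ± 5.99 CPM of Havcr2, far below the 3109 and 159 CPM of the cycling cells. Slamf6 was nearer, at 109 ± 26.3 CPM in cluster 7 and 93.1 ± 13.9 CPM in cluster 2, against 66.5 CPM. Clusters were made from all genes, so these gaps are not tested.

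**Figure D4:**
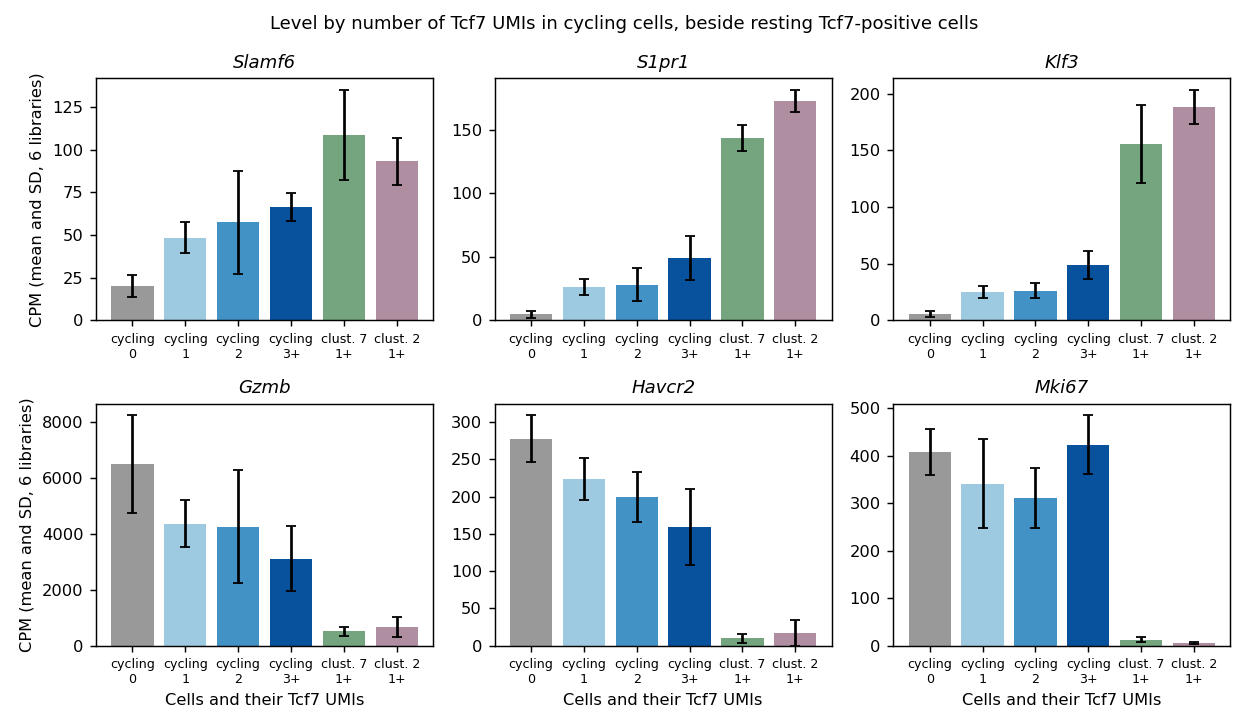
Mean level with SD over 6 libraries (y axis, CPM) of 6 genes in depth-matched cycling cells without Tcf7, in cycling cells with 1, 2 and 3 or more Tcf7 UMIs, and in Tcf7-positive cells of clusters 7 and 2. S1pr1 and Klf3 climb and Gzmb and Havcr2 fall with Tcf7 UMIs without reaching the levels of clusters 7 and 2, and Mki67 stays between 311 and 423 CPM in the cycling cells with Tcf7.

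A further comparison asked whether the difference between cells with and without Tcf7 was of the same size in cycling and in resting cells. The same matching was done in clusters 0, 1 and 8, which gave 1950 pairs, and the ratio of ratios was tested. Depth was matched within each compartment but not between them. The median depth per library was 5561 to 8654 UMIs in the resting Tcf7-positive cells and 20828 to 31583 UMIs in the cycling ones. Finding a Tcf7 UMI depends on depth, so cells without one are less surely Tcf7-negative in the resting clusters. The part of depth in these differences was not tested. Of 9314 genes 131 passed (1.41%), 105 with a larger ratio in cycling cells (1.13%) and 26 with a smaller one (0.279%). With DESeq2 the number was 68, without innate-marked cells 79 and without male library 1 it was 84.

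Homing and quiescence genes led this list. S1pr1 measured 38.4 ± 12.9 CPM with Tcf7 and 4.61 ± 2.56 CPM without it in cycling cells, and 121 ± 25.9 against 70.0 ± 11.8 CPM in resting cells (n = 6). The resting cells had more S1pr1 in both classes, and the ratio was larger in cycling cells by 1.96 ± 0.161 on the log2 scale (adjusted p = 5.34e-11). Klf3 showed the same form, at 37.4 ± 8.87 and 5.51 ± 2.61 CPM in cycling cells and 115 ± 27.8 and 70.7 ± 19.7 CPM in resting cells, with a difference of 1.86 ± 0.160 (adjusted p = 6.35e-10). Cxcr3, a chemokine receptor gene for interferon-induced ligands, differed by 1.41 ± 0.143 (adjusted p = 6.09e-09), and without innate-marked cells it did not pass (1.42, adjusted p = 0.0901). Pde2a, a phosphodiesterase gene, differed by 2.28 ± 0.266 (adjusted p = 1.28e-07).

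Myb and Il7r went the other way. Myb measured 31.5 ± 5.10 CPM with Tcf7 and 31.6 ± 2.80 CPM without in cycling cells, but 25.0 ± 7.74 and 10.2 ± 2.54 CPM in resting cells, so the ratio was smaller in cycling cells by -1.24 ± 0.161 on the log2 scale (adjusted p = 8.71e-07). Il7r measured 196 ± 26.6 and 184 ± 27.5 CPM in cycling cells and 359 ± 45.2 and 245 ± 43.8 CPM in resting cells, a difference of -0.45 ± 0.0774 (adjusted p = 0.000683). Among resting cells both genes were higher with Tcf7 in 6 of 6 libraries. The ratios of Gzmb (-0.01, adjusted p = 0.999), Prf1 (0.00, adjusted p = 1) and Pdcd1 (-0.03, adjusted p = 0.949) were not found to differ between the compartments, with SE of 0.160, 0.173 and 0.0709.

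**Figure D5:**
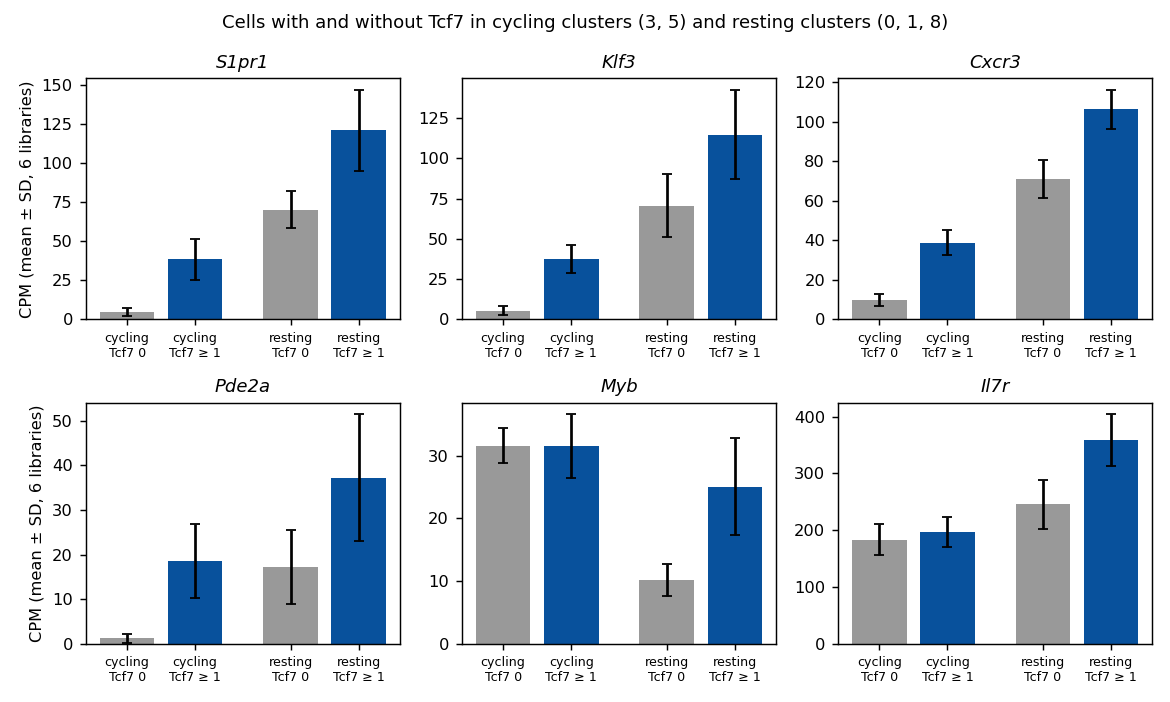
Mean ± SD over 6 libraries (y axis, CPM) of 6 genes in cells without (grey) and with Tcf7 (blue), in cycling clusters 3 and 5 and in resting clusters 0, 1 and 8. S1pr1, Klf3, Cxcr3 and Pde2a are lowest in the cycling cells without Tcf7, whereas Myb and Il7r differ by Tcf7 mainly in resting cells.

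The study set male against female hosts, so the Tcf7-positive cycling cells were also compared between the sexes. Few genes differed. Of 9041 genes 12 passed (0.133%), 6 higher in males (0.0664%) and 6 lower in males. Among the 12, 8 are sex-chromosome genes that follow the label: Ddx3y, Uty, Kdm5d and Eif2s3y of the Y chromosome were at 0 in every female library, and Xist, Tsix, Kdm6a and Eif2s3x were higher in females. The remaining 4 were Penk, Serpina3g, Ifitm1 and Ifitm2.

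Penk, the gene of the opioid precursor proenkephalin, measured 16.6, 21.5 and 19.6 CPM in male libraries 1, 3 and 4 and 0.496, 3.59 and 3.70 CPM in female libraries 2, 5 and 6. The sexes did not overlap, which 9.26% of all tested genes also showed, and the log2 fold change of male over female was 2.84 ± 0.340 (adjusted p = 0.000129). Without innate-marked cells it was 2.31 with an adjusted p of 0.0613. Serpina3g, an inhibitor of granule proteases, measured 74.6, 83.1 and 78.0 CPM in males and 48.6, 45.5 and 50.01 CPM in females, a log2 fold change of 0.71 ± 0.123 (adjusted p = 0.0137). It did not pass without female library 2 (adjusted p = 0.059), male library 4 (0.081) or female library 5 (0.15), or without innate-marked cells (0.65, adjusted p = 0.393).

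Ifitm2 and Ifitm1, interferon-induced membrane protein genes, were higher in females. Ifitm2 measured 298, 346 and 353 CPM in females and 154, 204 and 180 CPM in males, for a log2 difference of male minus female of -0.90 ± 0.119 (adjusted p = 0.000521). Without innate-marked cells it was -0.81 (adjusted p = 0.0253). Ifitm1 measured 936, 844 and 756 CPM in females and 386, 506 and 527 CPM in males, with a log2 fold change of -0.84 ± 0.127 at an adjusted p of 0.00237, and it did not pass without innate-marked cells (-0.75, adjusted p = 0.999). Ccr7 had a log2 fold change of 0.54 towards males that did not pass (adjusted p = 0.145), at 107, 103 and 128 CPM against 80.8, 77.8 and 74.7 CPM.

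The ratio of Tcf7-positive to Tcf7-zero cells was also tested for a difference between the sexes. Of 9297 genes 5 passed (0.0538%), 1 with a larger ratio in males (0.0108%) and 4 with a smaller one (0.043%): Spp1, Nr4a1, Cx3cr1, Rora and the gene model Gm12840. Nr4a1, an orphan receptor gene induced by T cell receptor signals, measured 110 ± 8.79 CPM with Tcf7 and 41.2 ± 6.23 CPM without in females, and 90.5 ± 32.4 and 68.3 ± 22.0 CPM in males (SD, n = 3). The ratio was smaller in males, by -1.003 ± 0.138 on the log2 scale (adjusted p = 5.1e-05). None of the 5 passed without innate-marked cells, where 2 other genes, Ccr7 and Dapl1, did. Leaving out 1 library gave 2 to 8 genes, with 2 without male library 1 or female library 5 and 8 without male library 3.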

How the data were processed

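The authors deposited 1 table of raw UMI counts for 15601 genes and 26698 cells and a table of cell metadata with cluster, sex, UMI count and gene number per cell. Per the submitters' processing notes the tools were Cell Ranger and Seurat and the genome build was mm10, and neither cell filters nor doublet handling is stated in those notes. Gene positions come from GENCODE for the same build. No doublet caller was run, and doublets of a dividing and a resting cell were not removed. The number of genes passing and the changed calls are also given without very deep cells, a filter that need not remove all doublets.

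Counts were summed per library over Tcf7-positive and over matched Tcf7-zero cells (at least 20 cells a sum). They were tested with edgeR 4.0.16 in R 4.3.3: TMM, filterByExpr, robust quasi-likelihood test, library as block, Benjamini-Hochberg adjustment, calls at an adjusted p under 0.05. Tcf7 was left out of the counts. SE is the log2 fold change divided by the root of the test's F. CPM values use TMM library sizes, except that list sums and the levels by number of Tcf7 UMIs use plain UMI totals. The sexes, the interactions and the shares were tested as described with each result. DESeq2 1.42.0 and limma 3.58.1 served as alternatives. The fits were also run on simulated counts, where they recovered most of the changed genes, the fewest in the sex by Tcf7 interaction. Those counts had a fixed dispersion, no library differences beyond size, and large changes placed only in genes well above the count floor. Smaller changes and uneven mixtures of cells were not simulated, so the run does not show how well such changes are found here.

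The labels name the 3 libraries per sex as biological replicates. Between the sexes, p-values measure the spread of levels or shares between these libraries. In the comparisons with a block they measure how much the ratio of Tcf7-positive to Tcf7-zero cells varies from library to library. The library is the block because both groups of cells come from the same library. The members and gene lists were chosen with earlier results of these data known. Genes were named by rule: up to 12 per direction by size among called genes of at least 10 CPM that moved alike in at least 5 libraries, up to 4 per list of 27 lists by p, a set of T cell genes, 5 per direction between the sexes and 5 per interaction. A gene of that set is not reported here. Genes named beside these were chosen after their values were seen.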

Additional observations from a re-analysis of the deposited data

Results flagged for a closer look

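For 2 genes, 1 library stood far from the other 5 in the ratio of Tcf7-positive to Tcf7-zero cells, a test that marks about 1 in 20 groups by chance. The log2 ratio of Gzmc was -2.51 in female library 6, below that of every other library. The log2 ratio of Myo10, a myosin gene, was -2.39 in the same library, whose sums come from 56 cells.

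The ratio of Tcf7-positive to Tcf7-zero cells differed between the sexes for 4 named genes. The differences, male minus female on the log2 scale, were -1.96 for Spp1, -1.003 for Nr4a1, -0.97 for Cx3cr1 and -0.79 for Rora. Cx3cr1 did not pass without male library 1 (-0.95, adjusted p = 0.097) or female library 5 (-0.79, adjusted p = 0.54), and Rora did not pass without male library 1 (-0.71, adjusted p = 0.37), female library 2 (-0.72, adjusted p = 0.24) or female library 5 (-0.65, adjusted p = 0.54). None of the 4 passed without innate-marked cells.

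The same ratio differed between cycling and resting clusters for 5 named genes, by 1.96 for S1pr1, 1.86 for Klf3, 1.41 for Cxcr3, 2.28 for Pde2a and -1.24 for Myb on the log2 scale. Depth was not matched between these clusters, and its part was not tested.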

How the results depend on the processing

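Depth, the number of animals and cells of mixed identity limit these results: sums hold as few as 56 cells, 3 libraries a sex cannot give an exact p below 0.1, and innate-marked cells were more frequent with Tcf7. The planned removal of very deep cells and cells with UMIs in 2 or more marker genes of other lineages was not run for the gene counts, because it took out 97.7% of the Tcf7-positive cells and left sums of 1 cell; the filters on innate-marked and on very deep cells replaced it and were chosen after seeing the data. For Tcf7-positive against Tcf7-zero cells the 1890 genes became 928 with DESeq2, 1119 in cluster 3 alone, 870 in cluster 5 alone, 937 with cells thinned to 1 depth and 759 without innate-marked cells. Leaving out 1 library gave 1407 to 1786 genes. With no replicate block, that is without the pairing of both groups within a library, the number was 792. Between the sexes no paired analysis was possible, because male and female libraries are separate samples and no label ties a replicate number to anything they share. The male against female comparison came to 44 genes with no filter on low counts and to a range of 11 to 20 on dropping single libraries, the highest on dropping male library 3. The sex by Tcf7 interaction gave 2 genes with DESeq2, 12 with no filter, 2 without innate-marked cells and 2 to 8 without 1 library. The cycling by Tcf7 interaction gave 68 with DESeq2, 222 with no filter, 79 without innate-marked cells and 84 to 133 without 1 library. Without very deep cells 1756 genes passed in the main comparison. Of the values of named genes in that setting 6 lost the call and 2 gained it. Xcl1 (adjusted p = 0.101), Mt2 (0.056), Top2a (0.148) and Mki67 (0.407) were among those lost. Bcl2 (0.0455) and Il7r (0.0214) gained it. The difference in share between the sexes was 5.32 to 11.3 points when 1 library was left out. Of the values of single named genes under the alternatives, 2583 kept their direction and call, 215 lost the call, 49 gained it and 8 changed sign without a call. In 3 a called value reversed its sign, and none of these reversed values passed. They were Il2 against a second matched set (-1.16, adjusted p = 0.505) and Mki67 with thinned cells (0.0242, adjusted p = 0.846). The sex interaction of Spp1 without innate-marked cells was the other (0.62, adjusted p = 0.999). The cause of all these changes was not tested.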
